A study of Mus musculus with 24 samples.

Results

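The vanins and the enzymes of coenzyme A synthesis were followed in mouse liver through 9 genes: Vnn1, Vnn3, Pank1, Pank2, Pank3, Pank4, Ppcs, Ppcdc and Coasy. They were taken by name from the gene probes of the array, 9 of 37074 gene names, and every probe of each was used, 11 in all. Livers came from 24 male C57Bl/6J mice, 6 in each of 4 groups, and each mouse gave 1 one-colour array. LWT mice, whose hepatocytes express PPARα, received vehicle (0.5% carboxymethyl cellulose) or CL316243 at 3 mg/kg in that vehicle, a β3-adrenergic agonist, and LKO mice, whose hepatocytes do not, received the same. All mice had free access to standard diet, were gavaged at Zeitgeber time 10 h and were killed at 16 h. The reading of LWT and LKO rests on the title of the series. The allele, the Cre driver and the ages are not given in the sources used here. Comparisons ask how the agonist moved each gene with and without hepatocyte PPARα, and how the genotypes differed under each treatment.

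Coenzyme A carries acyl groups in fatty acid oxidation, ketogenesis and lipid synthesis, and the liver holds a large pool of it. Cells build it from pantothenate: a pantothenate kinase phosphorylates it in the controlling step, Ppcs joins cysteine to the product, Ppcdc removes a carboxyl group to leave phosphopantetheine, and Coasy adds the adenylate and the last phosphate. Vanins are pantetheinases, which split pantetheine, a product of coenzyme A breakdown, into pantothenate and cysteamine. PPARα is a nuclear receptor for fatty acids that turns on fatty acid oxidation genes in liver, and Vnn1 is among its known liver targets.

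Levels are log2 of the background-subtracted intensity relative to the 75th percentile of the same array, so a level of 0 is that percentile and a difference of 1 is a doubling. A probe was tested with limma if the scanner marked it as clearly above background in 4 or more of the 6 livers of some group, and a difference was called at a Benjamini-Hochberg adjusted p under 0.05 over all 32037 such probes. All 11 probes of the 9 genes passed that filter. Between 26985 and 34202 probes were well above background per array, no probe was saturated (0), and the number of arrays limits the precision. Ppara, the targeted gene, was lower in LKO at both of its probes under CL316243 (log2 differences of -1.91 and -2.09, SE 0.20 each, adjusted p = 3.43e-07 and 5.71e-08). Under vehicle it was called lower at 1 probe only (-0.92, SE 0.20, adjusted p = 0.0196), while the other gave -0.67 (SE 0.20, adjusted p = 0.156). Whether either probe lies in the deleted part is not given in the sources used here. With CL316243 Ppara was called higher in LWT at both probes (0.55 and 0.64, adjusted p = 0.0374 and 0.0149). In LKO it was called lower at both (-0.69 and -0.54, adjusted p = 0.00979 and 0.0341). The LKO CL316243 livers were spread at these probes (SD 0.65 and 0.60), with lowest levels of 3.61 and 2.36 beside medians of 5.07 and 3.69. Ppara was not read with mice left out. The interaction was called at both probes (-1.24 and -1.18, adjusted p = 0.011 and 0.0135). All 6 hepatocyte markers were detected, with a summed level of 11.89 to 12.3 over the 24 livers, and 1 of them was called lower with CL316243 in LKO.

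In LWT livers CL316243 raised Vnn1, Ppcs, Pank1 and Pank3 and lowered Ppcdc and Coasy, so 6 of the 9 genes were called at their brightest probe. Over all genes 37.9% were called in that comparison (18.9% higher and 19% lower). In LKO livers 5 of the 9 were called: Pank3 rose, and Vnn3, Ppcs, Ppcdc and Coasy fell, where 40.1% of all genes were called (20.7% higher and 19.4% lower). By probe, 8 of 11 were called in LWT against 37.6% of all probes, and 6 of 11 in LKO against 40.9%. The median absolute log2 change of the 9 genes was 0.41 in LWT and 0.30 in LKO, and over all 21331 genes it was 0.25 and 0.26.

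The agonist effect differed between genotypes for Ppcs alone among the 9 genes, by the interaction term of this fit (5.48% of all genes called, 3.37% lower). Under vehicle the genotypes differed for Vnn1 alone (1.14% of all genes, 0.759% lower), and under CL316243 Vnn1, Pank1 and Ppcs were lower in LKO (15.5% of all genes, 8.14% lower). The corresponding shares of all probes were 5.91%, 1.1% and 15.3%. These comparisons share groups of mice, so the values below are given side by side. A share among 9 genes chosen by name is a description of them and was given no test.

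**Figure D1:**
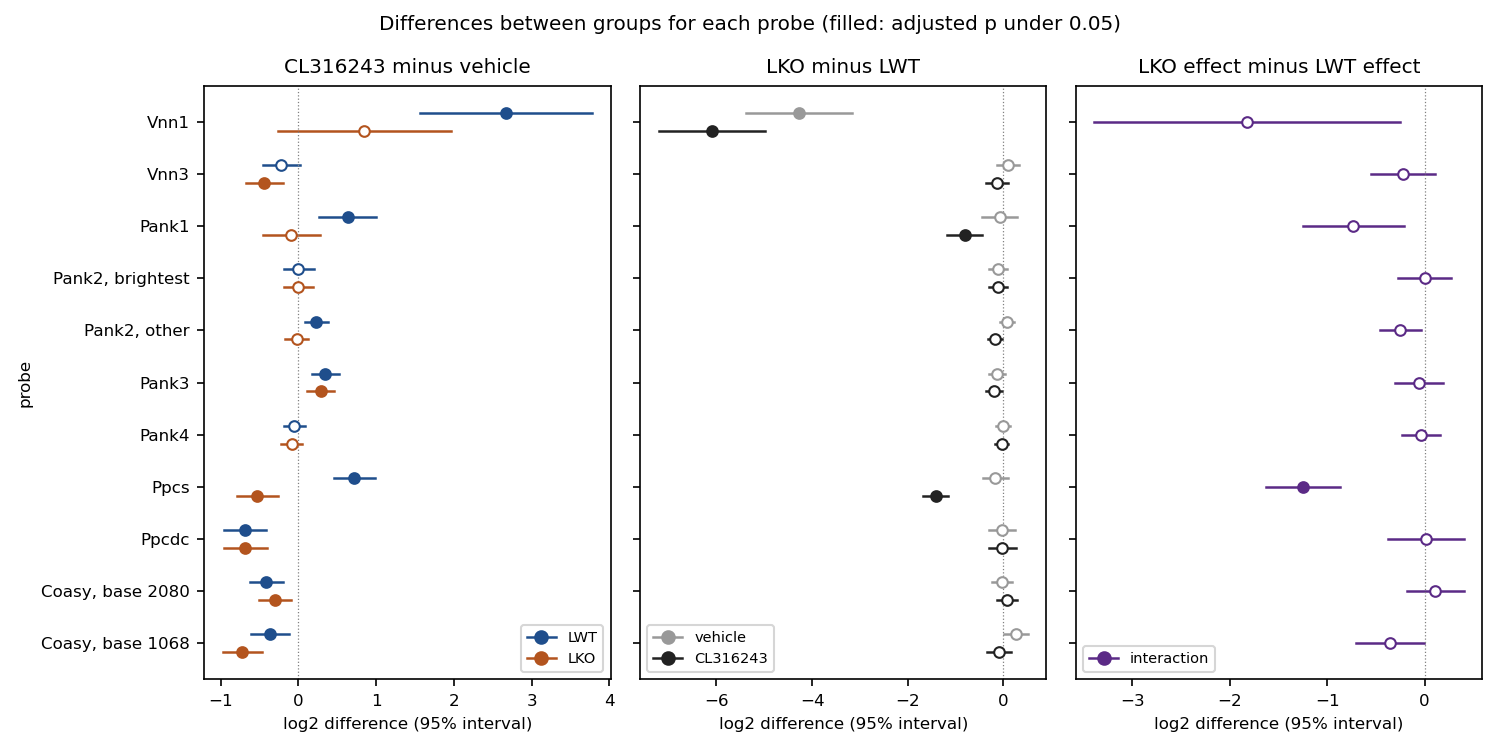
Log2 differences between groups for the 11 probes, as points with 95% intervals. Left, CL316243 minus vehicle in LWT (blue) and LKO (orange). Middle, LKO minus LWT under vehicle (grey) and CL316243 (black). Right, the LKO effect minus the LWT effect. Filled points have an adjusted p under 0.05. Ppcs lies to the right of 0 in LWT (0.72) and to the left in LKO (-0.53). The 2 probes of Pank2 are marked as brightest and other, and those of Coasy by the probe's first base in the transcript.

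Some markers of other cells were called with the agonist too, where 37.9% of all genes were called in LWT and 40.1% in LKO. Of 8 neutrophil markers 7 were detected, all but Ngp, and 3 were called higher and 1 lower in LWT and 5 higher in LKO. Their summed level was 7.11 to 7.26 in LWT vehicle, 7.26 to 7.47 in LWT CL316243, 6.94 to 7.18 in LKO vehicle and 7.20 to 7.94 in LKO CL316243. The 4 cholangiocyte markers had 1 higher call in each genotype, with summed levels of -0.20 to 0.87, 0.47 to 2.09, -0.06 to 0.85 and 1.02 to 3.07 in the same order. Of 7 detected macrophage markers 0 were called in either genotype, with summed levels of 5.91 to 7.01, 6.14 to 7.16, 6.05 to 6.84 and 5.96 to 6.92. Of 4 detected lymphocyte markers 2 were called lower in LWT, and 1 higher and 3 lower in LKO, with summed levels of 1.74 to 1.96, 1.51 to 1.83, 1.43 to 2 and 1.49 to 1.86. Of 5 endothelial markers 2 were called higher in LWT, and 1 higher and 1 lower in LKO, with sums of 5.78 to 5.91, 5.86 to 6.11, 5.61 to 6.04 and 5.62 to 6.08. Among the other lists, 1 of 4 stellate and 1 of 2 detected intestinal markers were called in LWT, lower and higher, and 1 of 4 red cell markers was called lower in LKO. Between genotypes, 1 of 3 detected adipocyte markers was called lower in LKO and 1 red cell marker higher, under each treatment. Under CL316243, 1 neutrophil and 1 intestinal marker were also called higher in LKO, and 1 lymphocyte and 1 intestinal marker lower. Of all genes, 1.14% were called between genotypes under vehicle and 15.5% under CL316243. The part of these cells in the changes and genotype differences below was not tested. In whole liver, fewer cells of a type and less RNA per cell cannot be told apart.

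Vnn1, a pantetheinase anchored to the outer cell surface, was the member that varied most. Its probe (RefSeq NM_011704, from base 1790) lies at chr10:23624524-23624583 on the plus strand of mm9. It holds AATAAA, the letters of the poly(A) signal. Bases 21 to 50 of the 60 bases of the probe are shown with them in capitals, as part of what was read as Vnn1:
Vnn1: cgggtgtaagcaAATAAAgtgcctcttctt

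The level of Vnn1 in LWT vehicle livers was 0.06 at the lowest, 0.55 at the median and 1.08 at the highest. In LWT CL316243 livers it was 2.20, 3.43 and 3.97. In LKO vehicle livers it was -5.68, -3.91 and -0.92, and in LKO CL316243 livers -3.74, -3.11 and -1.56. The agonist group lay wholly above the vehicle group in LWT, every LKO liver lay below every LWT liver, and the LKO groups overlapped. Groups that did not overlap were found for 19.8% of all probes in the LWT comparison, 1.77% between genotypes under vehicle and 6.55% under CL316243. Group means were 0.55 ± 0.35, 3.22 ± 0.62, -3.72 ± 1.61 and -2.87 ± 0.85 (SD, n = 6 each). On the intensity scale the 2 LWT groups spanned 408 to 714 and 1310 to 4720, and the 2 LKO groups 5.28 to 193 and 21.1 to 116. Only 3 of 6 LKO vehicle arrays and 5 of 6 LKO CL316243 arrays were well above background at this probe.

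CL316243 raised Vnn1 by 2.67 in LWT (SE 0.54, 6.36-fold, adjusted p = 0.00044). The difference in LKO was 0.85 (SE 0.54, 95% interval -0.26 to 1.96, adjusted p = 0.216), and it was called without LKO vehicle mouse 5, the highest of its group (1.41, adjusted p = 0.00983). Besides mouse 5, only mice 1 and 3 of that group were well above background. Over the alternatives other than leaving out 1 mouse, the difference in LKO was 0.21 to 1.02 and never called (adjusted p = 0.169 to 0.542). The interaction was -1.82 (95% interval -3.39 to -0.25) and was not called (adjusted p = 0.179). It was called with the normexp background correction (-2.25, adjusted p = 0.00033) and in the authors' series table (-2.24, adjusted p = 0.00346), and its adjusted p ranged from 0.00033 to 0.337 over the alternatives. Vnn1 was lower in LKO by 4.28 log2 units under vehicle (a difference of -4.28, SE 0.54, 19.4-fold, adjusted p = 3.79e-05). Under CL316243 the difference was -6.10 (SE 0.54, 68.4-fold, adjusted p = 1.62e-08). These sizes rest on dim LKO signals: with normexp they were -2.31 and -4.56, and in the series table -2.79 and -5.04. Within the 3 slides the rise in LWT was 3.10, 2.37 and 2.54, and the difference between genotypes under vehicle was -5.36, -4.21 and -3.25.

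**Figure D2:**
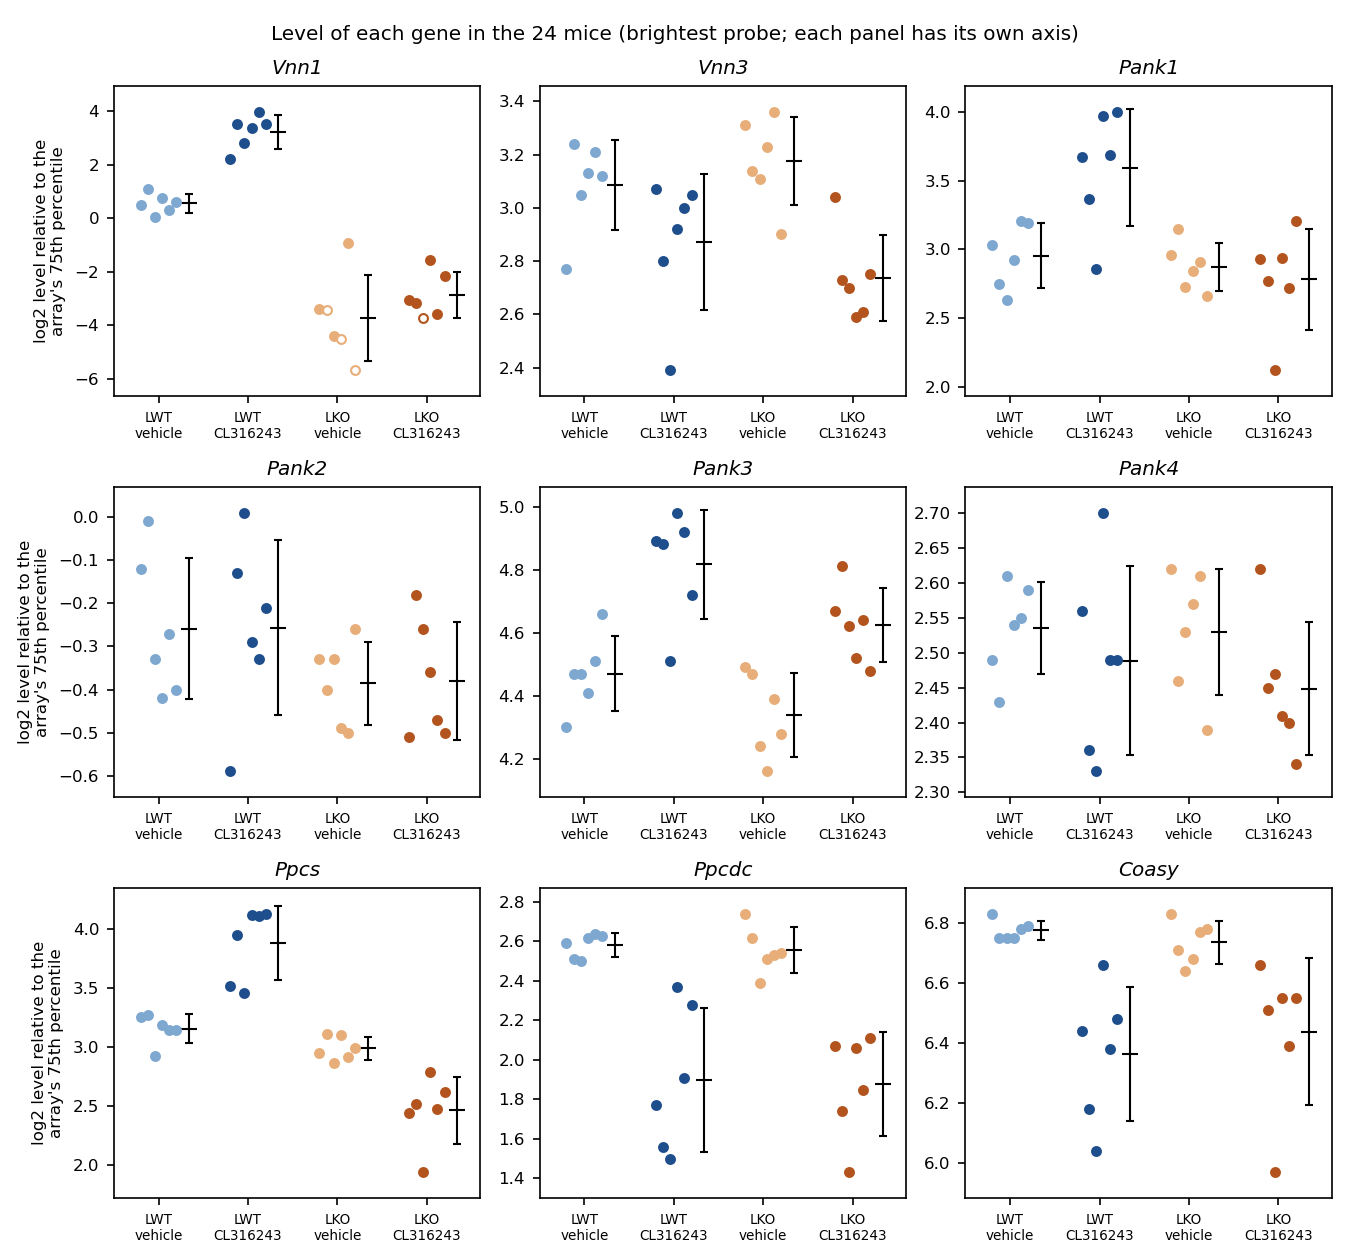
Log2 level of each of the 9 genes (brightest probe) in the 24 livers, relative to the array's 75th percentile. Points are mice, open where the probe was not well above background, and black bars are the mean ± SD of 6 mice. Each panel has its own axis. Vnn1 separates LWT from LKO under both treatments, Ppcs separates them under CL316243, and Ppcdc falls in both genotypes.

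Vnn3, the neighbouring vanin gene on chromosome 10, did not follow that pattern. Its probe (NM_011979, from base 1455) is annotated to chr10:23587033-23589353 on the plus strand of mm9, a span longer than the probe. The sequence is given because the 2 vanins are related, and signal shared between them could not be tested without their transcripts:
Vnn3: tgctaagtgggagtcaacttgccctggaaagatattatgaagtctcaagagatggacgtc

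Vnn3 levels had medians of 3.13 (2.77 to 3.24) in LWT vehicle, 2.96 (2.39 to 3.07) in LWT CL316243, 3.18 (2.90 to 3.36) in LKO vehicle and 2.72 (2.59 to 3.04) in LKO CL316243. All 4 groups overlapped. Vnn3 fell with the agonist in LKO (-0.44, SE 0.11, adjusted p = 0.00345), where 6 of 6 mice lay below the vehicle mean. The change in LWT was -0.22 (SE 0.11, 95% interval -0.45 to 0.02, adjusted p = 0.138). The interaction was -0.22 (95% interval -0.55 to 0.11, adjusted p = 0.492), so the effects were not shown to differ. LKO and LWT differed by 0.09 under vehicle (95% interval -0.14 to 0.32) and -0.13 under CL316243 (-0.37 to 0.10), neither called. Btd, the biotinidase gene of the same enzyme family, rose in both genotypes (0.50 and 0.36, SE 0.09 each, adjusted p = 0.000109 and 0.00207).

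Among the pantothenate kinases, Pank1 and Pank3 were called and Pank4 was not. Pank1, a main kinase isoform of liver, was read by a probe at chr19:34885801-34885860 on the minus strand of mm9 (NM_023792, from base 2283). Its level in LWT vehicle livers was 2.63 at the lowest, 2.98 at the median and 3.21 at the highest, and in LWT CL316243 livers 2.86, 3.68 and 4.00. In LKO vehicle livers it was 2.66, 2.87 and 3.15, and in LKO CL316243 livers 2.12, 2.85 and 3.21. LWT CL316243 livers were the high group, and 5 of 6 lay above the vehicle mean of their genotype, though the LWT groups overlapped.

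Pank1 rose by 0.64 in LWT (SE 0.18, 1.56-fold, adjusted p = 0.00662). The difference in LKO was -0.09 (SE 0.18, 95% interval -0.46 to 0.28, adjusted p = 0.71). Under CL316243 it was lower in LKO (-0.81, SE 0.18, adjusted p = 0.00236), and under vehicle the difference was -0.08 (95% interval -0.45 to 0.28). The interaction was -0.73 (SE 0.25, 95% interval -1.25 to -0.21, adjusted p = 0.0921) and was not called. Without LWT CL316243 mouse 3, the lowest of its group, it was called (-0.88, adjusted p = 0.0174), as it was with array weights (-0.64, adjusted p = 0.0359), and over the alternatives the adjusted p ran from 0.0135 to 0.196. Within slides the rise in LWT was 1.08, 0.22 and 0.62, and the difference between genotypes under CL316243 was -1.54, -0.05 and -0.85.

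Pank3, a cytosolic kinase held in check by acetyl-CoA, rose in both genotypes. The probe (NM_145962, from base 7231) lies at chr11:35604654-35604713 on the plus strand of mm9. Median levels were 4.47 (4.30 to 4.66) and 4.88 (4.51 to 4.98) in LWT without and with the agonist, and 4.34 (4.16 to 4.49) and 4.63 (4.48 to 4.81) in LKO. The groups overlapped in each genotype, with 6 of 6 agonist-treated mice above the vehicle mean. The rise was 0.34 in LWT (SE 0.08, adjusted p = 0.00232) and 0.29 in LKO (SE 0.08, adjusted p = 0.00845), and the interaction was -0.06 (95% interval -0.30 to 0.19). When arrays were centred on their median, the rise in LKO was 0.22 and was not called (adjusted p = 0.0854). LKO minus LWT was -0.19 under CL316243 (adjusted p = 0.133), called only without LWT CL316243 mouse 3, alone (-0.25, adjusted p = 0.0301) or together with LKO CL316243 mouse 3 (-0.25, adjusted p = 0.0395).

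Pank2, the kinase whose human gene is mutated in a form of neurodegeneration with brain iron, had 2 probes that differed. Both lay below the array's 75th percentile on average, with the same rounded mean level of -0.32, so the choice of the brightest was a near tie. Only the other probe was called in LWT, so the count of genes called there depends on that choice. At the brightest probe the level was lowest -0.59 and highest 0.01 over LWT livers, -0.51 and -0.18 over LKO livers, and no comparison was called (LWT 0.00, 95% interval -0.19 to 0.20; LKO 0.00, -0.19 to 0.19). At the other probe LWT vehicle livers spanned -0.47 to -0.31 and LWT CL316243 livers -0.30 to -0.04. Those groups did not touch, and the difference was 0.23 (SE 0.07, adjusted p = 0.0155). It was 0.20 and not called with median centring (adjusted p = 0.0552). In LKO the same probe gave -0.02 (95% interval -0.17 to 0.13), with an interaction of -0.25 (adjusted p = 0.166).

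Pank4, which lacks kinase activity and carries a phosphatase domain, showed no called difference. Its probe (NM_001305804, from base 2591) lies at chr4:154354923-154354982 on the plus strand of mm9. Medians were 2.54, 2.49, 2.55 and 2.43 in LWT vehicle, LWT CL316243, LKO vehicle and LKO CL316243, and all 24 livers fell between 2.33 and 2.70. The agonist difference was -0.05 in LWT (95% interval -0.18 to 0.09) and -0.08 in LKO (-0.22 to 0.05), with adjusted p of 0.616 and 0.338.

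Ppcs, which joins cysteine to phosphopantothenate, went up with the agonist in LWT and down in LKO. The probe (NM_026494, from base 1383) lies at chr4:119091138-119091194 on the minus strand of mm9. It too holds AATAAA, in capitals within its bases 14 to 43, shown for the member with a called interaction:
Ppcs: aaatttatgtgcAATAAAgtatgtgcccac

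In LWT vehicle livers Ppcs had a lowest level of 2.93, a median of 3.17 and a highest level of 3.27. In LWT CL316243 livers these were 3.46, 4.03 and 4.13. In LKO vehicle livers they were 2.87, 2.97 and 3.11, and in LKO CL316243 livers 1.94, 2.50 and 2.79. The vehicle groups overlapped, all LWT CL316243 livers lay above them, and all LKO CL316243 livers lay below them. Group means were 3.16 ± 0.12, 3.88 ± 0.31, 2.99 ± 0.10 and 2.47 ± 0.29 (SD, n = 6 each).

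Ppcs rose by 0.72 in LWT (SE 0.13, 1.65-fold, adjusted p = 0.000128) and changed by -0.53 in LKO (SE 0.13, 1.44-fold lower, adjusted p = 0.0024). Among all probes in LKO, the groups of 20.7% did not overlap. The interaction was -1.25 (SE 0.18, 95% interval -1.63 to -0.87, adjusted p = 0.000107). Under CL316243 Ppcs was 2.67-fold lower in LKO (-1.42, SE 0.13, adjusted p = 2.68e-08). Under vehicle the difference was -0.17 (95% interval -0.43 to 0.10, adjusted p = 0.83), although 6 of 6 LKO livers lay below the LWT mean. Within the 3 slides the LWT change was 1.08, 0.44 and 0.64, the LKO change -0.70, -0.50 and -0.37, and the interaction -1.78, -0.95 and -1.02. The interaction stayed between -1.33 and -1.14 with each of the 24 mice left out in turn.

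Because Ppcs was the member with a called interaction, its promoter was read from RefSeq (GRCm38.p6). The 250 bases before the transcript start, chr4:119422421-119422670 on the minus strand, hold the nuclear receptor hexamer AGGTCA, in capitals, on the sense strand with its first base at -224:
Ppcs promoter: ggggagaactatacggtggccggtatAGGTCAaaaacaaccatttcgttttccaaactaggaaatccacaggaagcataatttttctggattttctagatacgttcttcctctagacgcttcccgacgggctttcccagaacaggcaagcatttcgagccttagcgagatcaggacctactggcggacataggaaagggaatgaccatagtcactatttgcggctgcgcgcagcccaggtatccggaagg

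The hexamer was searched on both strands in windows of 250 bases before to 50 after each start. RefSeq starts matched 7 of the 9 genes, 10 starts in all, and 2 held the hexamer: Ppcs, and Ppcdc at base 28 after the start. It occurs at 5340 of all 32851 starts, or 16.3%, a share near that of the members. The repeat AGGTCANAGGTCA, which contains the hexamer, was found at 13 starts (0.0396%), none of them among the 10 starts searched. No window of Vnn1 or Coasy was searched. Such a match is a string of letters and shows no binding.

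Ppcdc, which decarboxylates the Ppcs product, fell in both genotypes. Its probe (NM_176831, from base 1363) lies at chr9:57261799-57261858 on the minus strand of mm9. The level in LWT was 2.50 at the lowest, 2.61 at the median and 2.64 at the highest with vehicle, and 1.5, 1.84 and 2.37 with CL316243. In LKO it was 2.39, 2.54 and 2.74 with vehicle, and 1.43, 1.96 and 2.11 with CL316243. In each genotype every agonist-treated liver lay below every vehicle liver.

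The change of Ppcdc was -0.69 in LWT (SE 0.13, 1.61-fold lower, adjusted p = 0.000316) and -0.68 in LKO (SE 0.13, 1.60-fold lower, adjusted p = 0.000347). The interaction was 0.01 with a 95% interval of -0.38 to 0.40. LKO minus LWT was -0.03 under vehicle (95% interval -0.30 to 0.25) and -0.02 under CL316243 (-0.30 to 0.26). Within slides the LWT change was -0.24, -1.03 and -0.79 and the LKO change -0.88, -0.59 and -0.56.

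Coasy, the bifunctional enzyme of the last 2 steps, was lowered by the agonist in both genotypes at both of its probes. The brighter probe (NM_001305982, from base 2080) lies at chr11:100947876-100947933 and the dimmer, from base 1068, at chr11:100946088-100946147, both on the plus strand of mm9. The dimmer is shown since it gave the larger fall in LKO:
Coasy, base 1068: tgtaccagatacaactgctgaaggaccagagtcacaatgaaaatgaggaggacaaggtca

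At base 2080 LWT livers spanned 6.75 to 6.83 with vehicle and 6.04 to 6.66 with CL316243, and LKO livers 6.64 to 6.83 and 5.97 to 6.66. The spread in LWT grew from an SD of 0.03 to 0.22, and in LKO from 0.07 to 0.24. The LWT groups did not overlap, and the LKO groups did. Coasy changed there by -0.41 in LWT (SE 0.10, adjusted p = 0.00241) and -0.30 in LKO (SE 0.10, adjusted p = 0.0194). The fall in LKO was -0.21 and not called without LKO CL316243 mouse 3, the lowest (adjusted p = 0.0532), and -0.21 and called with both CL316243 mice numbered 3 left out (adjusted p = 0.0228). Within slides it was -0.20, -0.68 and -0.36 in LWT and -0.47, -0.17 and -0.26 in LKO.

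At base 1068 the medians were 1.60 (1.51 to 2.07) and 1.32 (1.19 to 1.5) in LWT, and 2.02 (1.65 to 2.17) and 1.29 (0.73 to 1.49) in LKO. Neither genotype's groups overlapped. The change was -0.36 in LWT (SE 0.12, adjusted p = 0.0191) and -0.72 in LKO (SE 0.12, adjusted p = 6.33e-05), and the interaction was -0.35 (95% interval -0.70 to -0.01, adjusted p = 0.253). Without LWT vehicle mouse 3, the highest of its group, the LWT change was -0.29 and was not called (adjusted p = 0.0554). LKO minus LWT under vehicle was 0.27 (SE 0.12, adjusted p = 0.497), called only with array weights (0.34, adjusted p = 0.0352). At base 2080 that difference was -0.04, with a 95% interval of -0.24 to 0.17.

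**Figure D3:**
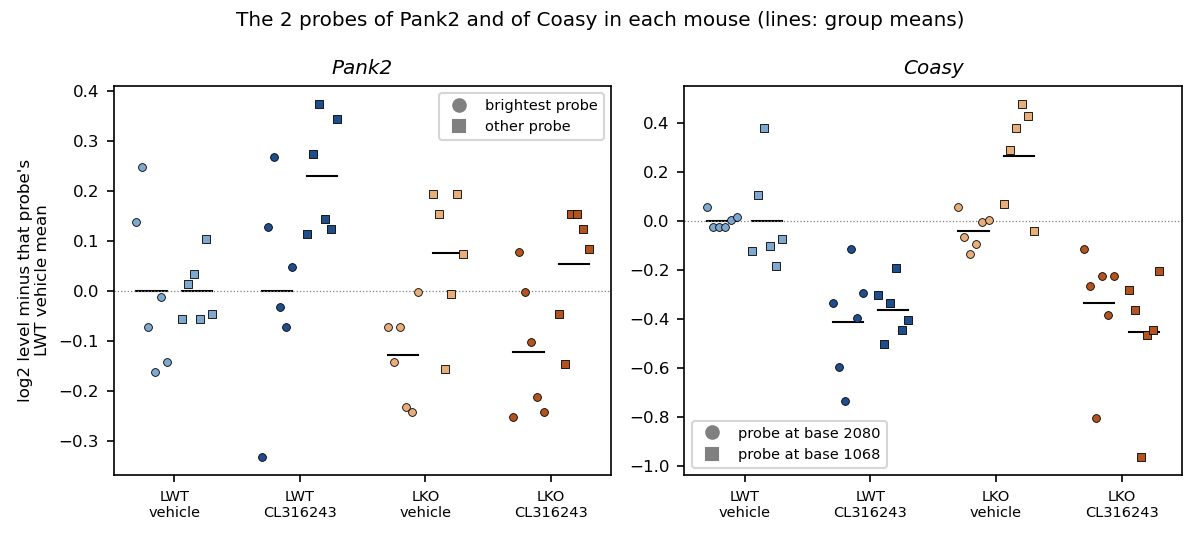
Level of the 2 probes of Pank2 (left) and of Coasy (right) in each liver, as log2 minus that probe's mean in LWT vehicle livers. Circles and squares are the probes, for Coasy named by their first base in the transcript, and lines are group means of 6 mice. Both Coasy probes fall with CL316243 in both genotypes (-0.41 and -0.36 in LWT), while the Pank2 probes part in LWT (0.00 and 0.23).

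Among the 6 mice of each agonist group, 1 stood low for many of these genes. LWT CL316243 mouse 3 gave the lowest level of its group at 7 of 11 probes, and LKO CL316243 mouse 3 at 6 of 11. Their arrays had 30133 and 27921 probes well above background. LWT CL316243 mouse 1 had fewer, 26985, and was lowest at 3 of 11 probes. Among vehicle mice, LKO mouse 6 came nearest, lowest at 5 of 11. With both CL316243 mice numbered 3 left out, the calls in LWT and LKO held for all 11 probes. In that fit Ppcs changed by 0.81 and -0.42 (interaction -1.23, adjusted p = 7.88e-06), and the interaction of Pank1 was called (-0.74, adjusted p = 0.0135).

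Around the pathway, 20 of 21 listed genes were detected, all but Gadl1. In LWT 3 rose, 7 fell and 10 were not called, and in LKO 1 rose, 6 fell and 13 were not called. Over all genes 37.9% were called in LWT and 40.1% in LKO. The median change of the 20 was -0.15 in both genotypes, beside 0.01 and 0.03 for all genes.

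Of 3 transporters of pantothenate and coenzyme A, 1 rose in LWT, and it was Slc25a42, the carrier that brings coenzyme A into mitochondria. Its level was 4.34 at the lowest, 4.62 at the median and 5.22 at the highest in LWT vehicle livers, and 5.91, 6.51 and 6.78 in LWT CL316243 livers. In LKO it was 4.31, 4.45 and 4.70 with vehicle, and 3.74, 4.31 and 5.08 with CL316243. LWT CL316243 livers stood above all others. Slc25a42 rose by 1.82 in LWT (SE 0.18, 3.54-fold, adjusted p = 7.83e-08) and differed by -0.14 in LKO (95% interval -0.51 to 0.23), with an interaction of -1.96 (SE 0.25, adjusted p = 2.75e-05). Under CL316243 it was 2.12 log2 units lower in LKO (a difference of -2.12, adjusted p = 8.99e-09), and under vehicle the difference was -0.16 (95% interval -0.53 to 0.21). Its other probes gave 1.45 and 1.90 in LWT and -0.02 and -0.48 in LKO. Slc5a6 and Slc25a16 were the rest of that list, and Slc25a16 was called lower in LKO.

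Of 6 genes of coenzyme A breakdown, 3 fell in LWT and 2 in LKO at their brightest probe. Enpp3, an ectonucleotide pyrophosphatase, fell by 1.33 in LWT and 0.85 in LKO (changes of -1.33 and -0.85, SE 0.25 each, adjusted p = 0.000198 and 0.00856). The groups overlapped in both genotypes. The interaction was 0.48, with a 95% interval of -0.24 to 1.21.

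Of 6 genes that transfer or carry the phosphopantetheine arm, 1 rose and 2 fell in LWT, and 2 fell in LKO. Ndufab1, the mitochondrial acyl carrier protein, rose by 0.50 in LWT (SE 0.06, adjusted p = 3.83e-07) and differed by -0.13 in LKO (adjusted p = 0.0592), with an interaction of -0.64 (SE 0.08, adjusted p = 1.53e-05). It was higher in LKO under vehicle (0.24, adjusted p = 0.033) and lower under CL316243 (-0.40, adjusted p = 1.52e-05). Its second probe gave 0.93 in LWT, 0.10 in LKO and, under vehicle, an uncalled 0.09 between genotypes. Fasn, the fatty acid synthase, fell in both genotypes (-1.21 and -1.06, SE 0.37 each, adjusted p = 0.0135 and 0.027), with overlapping groups.

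Of 4 detected genes on the route from cysteamine or cysteine to taurine, 2 fell in LWT and 1 in LKO. Fmo1, a flavin monooxygenase that oxidises hypotaurine, fell in both (-0.91 and -0.97, SE 0.13 each, adjusted p = 7.17e-06 and 4.17e-06). Cdo1, cysteine dioxygenase, was higher in LKO under CL316243 (0.65, SE 0.19, adjusted p = 0.0208). Csad, which decarboxylates cysteine sulfinate, was higher in LKO under vehicle (0.63, SE 0.15, adjusted p = 0.032) and under CL316243 (0.46, adjusted p = 0.0345), where its other probe gave an uncalled 0.02 (adjusted p = 0.967).

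Probes of the same gene did not always share a call. Beside the brightest probe, another gave a different call for Nudt7, Enpp1 and Aldh1l1 in LWT, for Csad, Slc25a16 and Nudt8 in LKO, and for Fmo1 in both. These genes were singled out after their values were seen. Nudt7, a peroxisomal coenzyme A hydrolase, differed by -0.39 in LWT at its brightest probe (adjusted p = 0.0815) and by -0.74 at another (adjusted p = 0.00108), where the interaction was 0.79 (adjusted p = 0.0428).

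**Figure D4:**
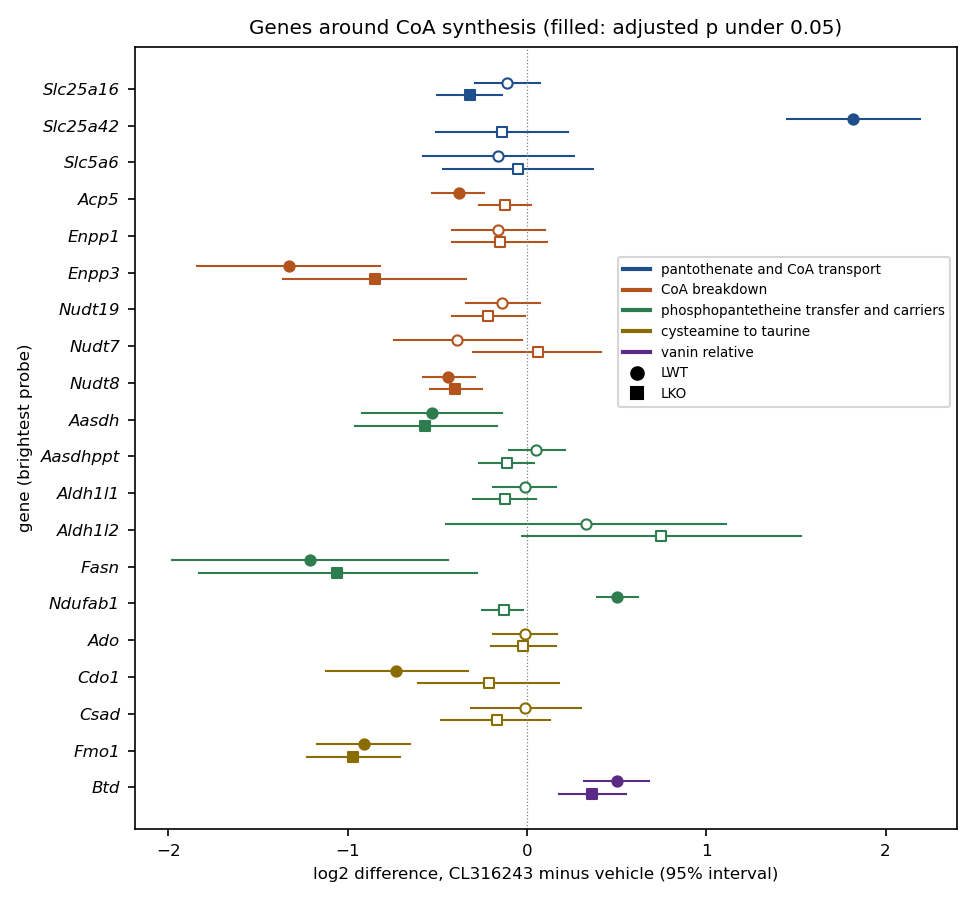
Log2 change with CL316243 of the 20 detected genes around coenzyme A synthesis (brightest probe), in LWT (circles) and LKO (squares), with 95% intervals and coloured by list. Filled symbols have an adjusted p under 0.05. Slc25a42 (1.82 in LWT, -0.14 in LKO) and Ndufab1 (0.50 and -0.13) are the genes of the plot with a called interaction.

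The genes whose levels followed a member most closely were ranked among 13557 named genes by the root mean square difference over the 24 livers, after each gene was centred on its own mean. The measure is a description, since all genes share the same livers and arrays. For Vnn1 they were Serinc2 (0.92), Rufy4 (1.16), Cyp4a10 (1.17), Cyp4a31 (1.21) and Slc25a34 (1.30), where the median over all genes was 2.93. Serinc2 differed by 1.88 in LWT, 0.46 in LKO and -4.03 between genotypes under vehicle. Cyp4a10, a fatty acid omega-hydroxylase, differed by 3.99, 0.30 and -2.19 in the same comparisons, beside 2.67, 0.85 and -4.28 for Vnn1.

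For Vnn3 the nearest were Rmdn1 (0.12), Il1rap (0.13), Bphl (0.14), Uroc1 (0.14) and Cyp2j8 (0.14), against a median of 0.38. For Pank1 they were Rassf3 (0.22), Nanp (0.23), Sar1b (0.23), Pnpla7 (0.23) and Mlycd (0.23), against a median of 0.52. Rassf3, the nearest, differed by 0.26 in LWT (adjusted p = 0.186), -0.13 in LKO and -0.57 between genotypes under CL316243. Mlycd, which encodes malonyl-CoA decarboxylase, differed by 0.69, -0.20 and -1.13 in the same comparisons. The order within each of these lists rests on differences of a few hundredths for Vnn3 and Pank1.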

How the data were processed

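Liver RNA (200 ng per mouse) was labelled with Cy3, per the labels' protocols. Per the file headers, the authors used the scanner software Feature Extraction (Agilent, version 10.10.1.1) and deposited background-subtracted intensities per spot. The deposited series table holds log2 values that matched quantile-normalized log2 median signals within 0.01 for 99.26% of values over 31367 probes (columns without a sample: 0); it served as an alternative. Column medians there were 8.081 to 8.085.

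Control spots and outlier-flagged spots were left out, spots of a probe averaged in log2, and each array's 75th percentile over probes (271.1 to 390.1) subtracted. Of 56605 probes, 32037 were kept (marked well above background in 4 or more of 6 mice of some group, with 3 or more values per group). limma 3.58.1 in R 4.3.3 was fitted over 24 arrays with 1 mean per group, and checked on simulated data. Each of 3 slides held 2 mice of every group. Replicates are separate mice.

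The members, the neighbouring gene lists and the marker lists were chosen with earlier results of these data known. All members were named, with the 3 largest called changes per direction and comparison among the neighbouring genes and the 5 genes nearest to Vnn1, Vnn3 and Pank1. Probe positions are the array's (mm9). Alternatives covered background, normalization, filter, slide and row, variance model, array weights, replicate block, percentile over spots and each mouse left out. The sequences of some probes are not reported here.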

Additional observations from a re-analysis of the deposited data

Results flagged for a closer look

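Among 44 groups of 6 mice (11 probes in 4 groups), 3 held a mouse far from the others, where chance alone flags about 1 in 20 groups. For Vnn3, LKO CL316243 mouse 1 was at 3.04, with the nearest mouse at 2.75 and the lowest at 2.59. For Ppcs, LWT vehicle mouse 3 was at 2.93, with the nearest at 3.15 and the highest at 3.27. For Coasy at base 1068, LKO CL316243 mouse 3 was at 0.73, with the nearest at 1.23 and the highest at 1.49.

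The effect of CL316243 on Ppcs differed between LKO and LWT by -1.25 log2 units, by the interaction term of the limma fit.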

How the results depend on the processing

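Of 804 member values under the alternatives, 795 kept their side of the threshold, 2 lost a call, 7 gained one and 0 called values reversed. With 1 mouse left out, 787 of 792 kept it, 2 lost a call and 3 gained one, all named with the results. For 12 uncalled differences, no larger than 0.09 in size, the sign changed in some of these fits, 97 in all. Member probes with a called interaction numbered 1, and 2 with array weights, normexp, the series table, the replicate block and both CL316243 mice numbered 3 left out (an alternative, like the percentile over spots, chosen after seeing the data), and 1 to 2 with each mouse left out. Under vehicle array weights called 2 member probes between genotypes, not 1.

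Over all probes, the interaction was called for 1892, and for 3442 with array weights. It was called for 1152 with 1 probe per gene (21331 probes tested, not 32037) and for 1099 without the filter. The genotype difference under vehicle was called for 351, and for 1086 with array weights and 221 without the filter. Fitting only the compared groups called 3205 under CL316243, not 4900, and 1 probe per gene called 8566 for the agonist in LKO, not 13091, with fewer probes tested. The cause of the shifts in the other fits was not tested. Median centring left 40.9% of the LKO calls higher, against 51.2%. Without the filter the median of all probes shifted to 0.122 in LWT and 0.101 in LKO.

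Replicate numbers do not name shared animals, since each mouse gave 1 array. Same-numbered mice correlated at -0.17 to 0.42 after group means were removed. Of 36 pairs 8 were over 0.1 (5 of them among mice numbered 3), and 8 of 24 arrays lay closest to their own number. The number partly follows the array position: every mouse numbered 5 was on slide 3, and every mouse numbered 6 was in row 2. Whether mice of the same number share anything else was not tested. The replicate block called the Pank1 interaction (-0.73, adjusted p = 0.0266) and changed no other member call. Signal limits Vnn1 in LKO, where it was near background.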
